A study of Drosophila melanogaster and Drosophila virilis and Drosophila yakuba with 44 samples.

Results

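Rab GTPases are small GTP-binding proteins that sit on the membranes of vesicles and organelles. In the GTP-bound state each Rab recruits effectors such as tethers and motors, exchange factors (GEFs) load the GTP, and GTPase-activating proteins (GAPs) speed its hydrolysis. Different Rabs mark different compartments, so the set a cell transcribes relates to its secretory, endosomal, and lysosomal traffic. The genes described here are the 35 rows of the D. melanogaster count tables whose symbol begins with Rab or RabX and then a number, of 13458 genes in all. Of these, 33 encode Rab GTPases. The other 2, Rab3-GAP and Rab3-GEF, are named for regulators of Rab3 that the name rule also takes in, and they are kept apart in the counts of GTPases.

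The samples were 23 3′-seq libraries, in which reads pile up at the 3′ ends of polyadenylated RNA, and 3 total RNA-seq libraries prepared from the same RNA as their 3′-seq partners. The 7 adult libraries came from flies of 2–5 days, of the Canton S strain where the study names one, and comprised female head, ovary, testis, female and male carcass (the body without head and gonads), and whole mated females and males. The 6 embryo libraries covered the windows 0–45 min, 45–90 min, and 90 min–6 h of age and then 6–12 h, 12–18 h, and, as the last, 18–24 h. The 10 cell lines were GM2, mbn2, L1 (labelled cmel1), BG3, D16-c3 (mldmd16_c3), D4 (Dmd4), D32 (Dmd32), D20 (Dmd20), OSS, and S2R+. BG3 derives from the larval central nervous system, the D lines and L1 from imaginal discs, mbn2 from blood cells, OSS from somatic cells of the ovary, and S2R+ and GM2 from embryos. RNA-seq covered head, ovary, and testis. From D. yakuba, 5 3′-seq and 3 RNA-seq libraries enter the closing observations only. No agent or mutation was applied in any of these groups.

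Each condition had 1 library, so differences between 2 tissues have no replicate check and are descriptions. Levels are given as RPM, reads per 1e6 of the library size after trimmed mean of M-values (TMM) scaling, and intervals cover counting error at 95% only. The RNA-seq libraries held 23089872 to 66969674 counted reads. In 3′-seq, counted reads ranged from 1519235 to 15693295 in the adult libraries, from 477958 (BG3) to 9793900 in the cell lines, and from 42379 (45–90 min) to 5546261 in the embryos. A count of 0 allows up to 3 reads, which correspond to 35.8 RPM in the 45–90 min embryos, 4.52 RPM in BG3, and at most 1.48 RPM in the other adult, embryo, and cell line libraries. The GTPases together took 0.131% to 0.471% of the counted reads of a library, with the highest share in S2R+.

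The libraries were checked against marker lists. The 10 neuronal markers summed to 5941 RPM in head, 43.9 RPM in ovary, 90.1 RPM in testis, and 64.8 to 400 RPM in the cell lines. The 9 testis markers summed to 13603 RPM in testis, 557 RPM in whole males, and 14.7 RPM in male carcass. Testis also held 846 RPM of 5 accessory gland markers and 746 RPM of follicle cell markers, 4 of 5 with reads, against 44504 RPM of the latter in ovary. The 5 germline markers of ovary summed to 559 RPM in whole males and 30.7 RPM in testis, so the whole male library held more RNA of these genes than testis. In all these tissues, more cells of a type and more RNA per cell cannot be told apart.

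Of the 33 GTPases, 29 reached 5 RPM in at least 1 3′-seq library, as the map of levels shows. Rab9Db, Rab9Fa, RabX2, and RabX5 did not. Most of the others were read throughout the atlas. The tissue specificity index tau, which is 0 for equal levels on log2(RPM + 1) in all 23 libraries and 1 for reads in 1 library only, had a median of 0.309 over these 29 GTPases and 0.499 over all 11857 genes at 5 RPM. Tau reached 0.7 for 5 of the 29 (17.2%), which were Rab9E (0.98), Rab9Fb (0.96), Rab9D (0.91), Rab3 (0.78), and Rab26 (0.75), against 36.2% of all genes. The lowest tau was that of Rab2 (0.095), a Golgi and lysosomal traffic Rab that ranged from 35.0 RPM in whole females to 218 RPM in L1. Head held the highest level of 7 GTPases, testis of 6, S2R+ of 5, and ovary of 4. The shares of all genes by highest library were not computed, so these counts have no background.

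**Figure D1:**
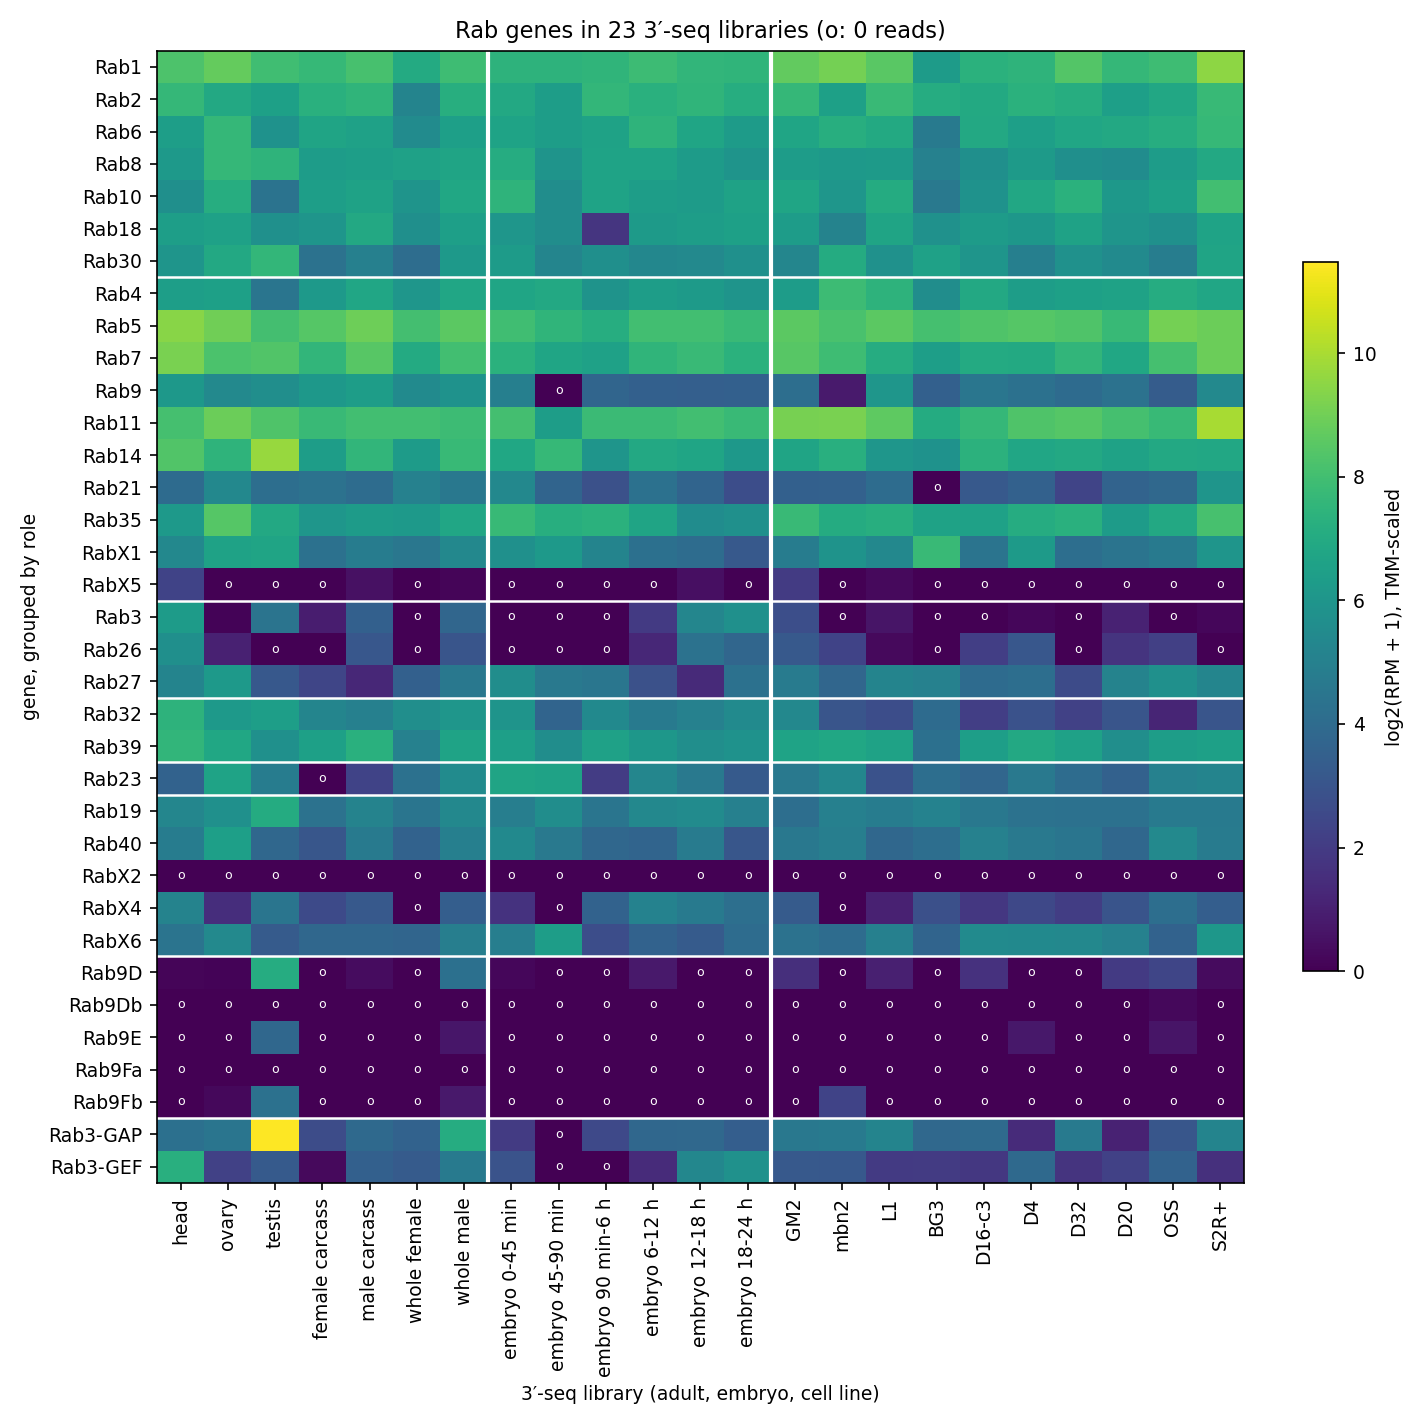
Level of each of the 35 genes (rows, grouped by role) in each of the 23 3′-seq libraries (columns: adult, embryo, cell line), as log2(RPM + 1) in colour, with o for 0 reads. Most rows are read in every library, while Rab3, Rab26, RabX5, RabX2, and the Rab9 paralogs on chromosome X have many columns at 0, and the brightest cell is Rab3-GAP in testis.

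Among the Rabs of secretion and endosomes, the 4 described next were read in all 23 libraries. Rab5, which organizes early endosomes, ranged from 140 RPM in 90 min–6 h embryos to 678 RPM in head, with a median of 312 RPM. Rab11, of recycling endosomes, ranged from 83.6 RPM (7 reads, 45–90 min embryos) to 1010 RPM in S2R+, with a median of 257 RPM. Rab1, which acts between the endoplasmic reticulum and the Golgi, ranged from 78.4 RPM in BG3 to 734 RPM in S2R+, with a median of 229 RPM. Rab7, of late endosomes and lysosomes, ranged from 84.4 RPM in BG3 to 572 RPM in head. Their highest library was thus S2R+ or head. S2R+ also held the highest levels of Rab10 (256 RPM), which acts in polarized exocytosis, Rab6 (206 RPM), a Golgi Rab, and Rab21 (61.5 RPM), an early endosomal Rab.

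Levels of different genes were compared per length in RNA-seq, as RPKM on the union of annotated exons. Rab1 led in head with 156 RPKM, followed by Rab7 (135 RPKM), Rab2 (92.6 RPKM), Rab5 (90.3 RPKM), and Rab3 (86.5 RPKM). In ovary the order was Rab11 (143 RPKM), Rab1 (138 RPKM), and Rab10 (109 RPKM). In testis Rab14 led with 162 RPKM, about 2 times the next gene, Rab7 (81.5 RPKM), while Rab11 and Rab1 stood level at 78.7 RPKM each. Rab14, which acts between endosomes and the Golgi, was thus the leading Rab of testis, and it ranked far lower per length in head (30.4 RPKM) and ovary (18.3 RPKM).

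The head libraries address which Rabs a tissue rich in neurons transcribes. A gene was called at a 2-fold or larger ratio of RPM + 0.5 in the same direction in 3′-seq and RNA-seq. Of 26 GTPases with at least 5 RPM in head or ovary in both assays, 3 were higher in head (11.5%, against 31.6% of all genes) and 8 were lower (30.8%, against 38.1% of all genes). The median log2 ratio of these 26 in 3′-seq was −0.49, and that of all 8374 genes compared was −0.50. Size factors of DESeq2 moved the median of all genes to 0.54, and the share of higher calls among all called genes from 45.3% to 64.6%. Head also held more RNA of other tissues than ovary, with 126357 against 10884 RPM of fat body markers, 26018 against 61.1 RPM of photoreceptor markers, and 9795 against 107 RPM of muscle markers. The fat body list includes yolk protein genes, which follicle cells of the ovary also express. The part of these tissues in the head values was not tested. Under TMM, library total, and DESeq2 scaling alike, 3 GTPases were called higher (Rab3, Rab26, and RabX4) and 2 lower (Rab23 and Rab35).

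Rab3, the synaptic vesicle Rab (chromosome 2R, 10721335 to 10729203, minus strand, dm6), had 77.9 RPM in head, 0.088 RPM (1 read) in ovary, and 20.1 RPM in testis in 3′-seq. In RNA-seq it had 325 RPM in head, 0.31 RPM in ovary, and 12.8 RPM in testis. Both assays thus placed head first and testis above ovary. The 3′-seq ratio of head to ovary was 885 (interval 158 to 35015, from 730 reads and 1 read), and that of head to testis was 3.87 (3.12 to 4.85). The assays differed in the log2 ratio of head to testis, which was 1.93 in 3′-seq and 4.61 in RNA-seq. The log2 ratio of 3′-seq to RNA-seq for Rab3 was −2.05 in head and 0.63 in testis. The medians of the GTPases were 0.80 and 0.94, so the head value was the one that departed. Rab3 overlaps CAH13 on the opposite strand by 2003 bp in the reference annotation, and how the 3′-seq counting used strand is not given in the sources used here.

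Rab3 had 12.6 RPM in whole males and 0 reads in whole females, and carcass held 10.5 RPM in males and 0.90 RPM (4 reads) in females. In the cell lines it was at 0 reads in 5 of 10 libraries, and the highest was GM2 with 5.72 RPM. The neuronal marker list moved with it. It summed to 677 RPM in whole males and 92.6 RPM in whole females, and to 543 RPM and 194 RPM in the carcass of males and females, with 6 to 9 of 10 markers read, and its part in these values was not tested.

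Rab26 (chromosome 3L, 21318774 to 21335027, plus strand), which in mammals is linked to secretory granules and synaptic vesicles, had 51.7 RPM in head, 1.06 RPM in ovary, and 0 reads in testis. RNA-seq gave 1471 reads (37.4 RPM) in head, 1 read in ovary, and 6 reads in testis. Head was 48.9 times ovary in 3′-seq (27.7 to 95.3) and at least 81.3-fold higher than testis, where 3 reads is the floor. All other fly libraries were under 19 RPM. The remaining levels were 7.75 RPM in male carcass, 7.08 RPM in whole males, and up to 8.26 RPM (GM2) in the cell lines.

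RabX4 (chromosome 3R, 24826665 to 24828409, minus strand) had 34.5 RPM in head, 1.85 RPM in ovary, and 21.2 RPM in testis, and RNA-seq gave 25.4, 1.23, and 16.6 RPM. Head was 18.7 times ovary (12.0 to 30.5), and testis was 11.5 times ovary (7.11 to 19.3). RabX4 shares 131 bp with Kaz on the same strand. RabX5 was read in 6 libraries only, with 37 of its 59 reads in head (3.95 RPM), so it stayed under the 5 RPM minimum, and its RNA-seq level in head was 2.82 RPM.

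Rab3-GEF, named for an exchange factor of Rab3, was highest in head like Rab3, but it was read in 21 libraries, against 14 for Rab3. It had 152 RPM in head, 3.61 RPM in ovary, and 8.48 RPM in testis, and RNA-seq gave 262, 0.24, and 0.98 RPM. Head was 42.0 times ovary (30.8 to 58.8) and 17.9 times testis (13.1 to 25.2) in 3′-seq. It was called higher in head in both comparisons and under all 3 scalings.

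Rab27, which in mammals docks secretory vesicles, did not follow Rab3 and Rab26. It had 35.7 RPM in head, 73.2 RPM in ovary, and 8.06 RPM in testis. Male carcass (1.43 RPM) and 12–18 h embryos (1.60 RPM) had the lowest levels, and OSS (53.4 RPM) had the highest level among the cell lines. Ovary was thus above head and testis. The call of head under ovary (2.05-fold) was lost with DESeq2 size factors, whereas that of testis under ovary (9.08-fold, 6.56 to 12.9) held under all 3 scalings.

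**Figure D2:**
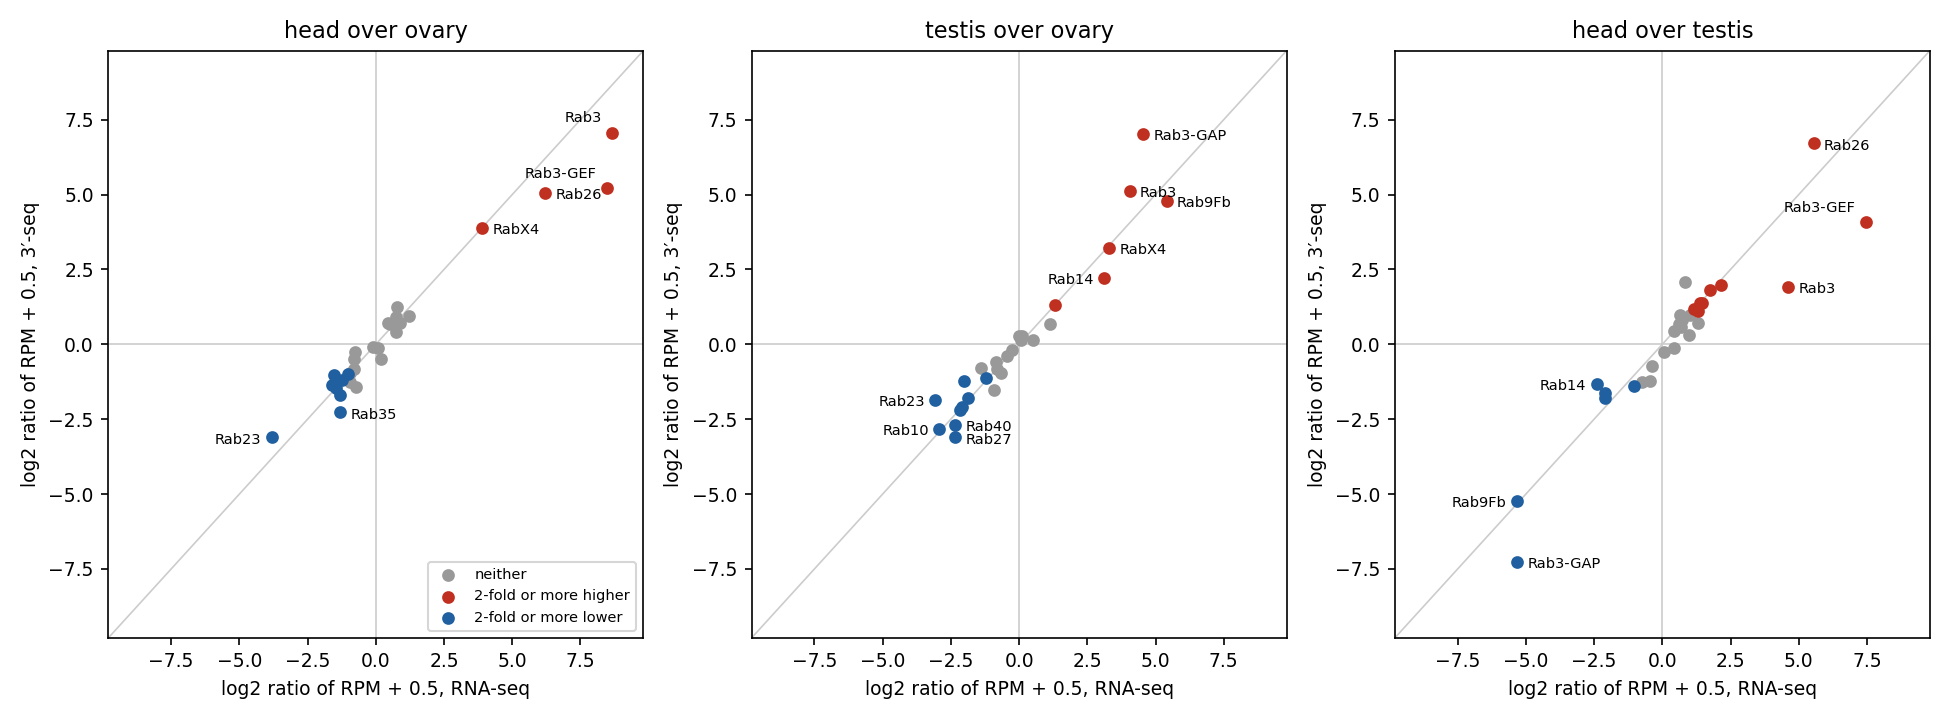
Log2 ratio of RPM + 0.5 in RNA-seq (x axis) against 3′-seq (y axis) for head over ovary, testis over ovary, and head over testis, with 1 point per Rab gene at 5 RPM or more in both assays. Red and blue mark genes 2-fold or more higher or lower in both assays, the diagonal marks equal ratios, and 24 of 26, 25 of 26, and 25 of 27 GTPases had the same sign in both assays.

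In ovary, Rab23 and Rab35 stood out. Rab23 (chromosome 3R, 5680054 to 5685434, minus strand), which acts in planar cell polarity of the wing, had 99.6 RPM in ovary, 11.1 RPM in head, and 27.3 RPM in testis, and RNA-seq gave 82.0, 5.34, and 9.27 RPM. Ovary was 8.97 times head (7.33 to 11.1). The other high libraries were 0–45 min embryos with 102 RPM and 45–90 min embryos with 95.5 RPM (8 reads), and female carcass had 0 reads. Whole males had 45.0 RPM, above male carcass (3.98 RPM) and testis, in the library with 559 RPM of ovary germline markers.

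Rab35, which acts in endocytic recycling and in actin organization, had 346 RPM in ovary, 71.2 RPM in head, and 119 RPM in testis, and RNA-seq gave 68.9, 27.7, and 36.0 RPM. Ovary was 4.86 times head (4.48 to 5.29). Of the other 6 GTPases called lower in head than in ovary, Rab10, Rab21, Rab6, Rab40, Rab27, and RabX6, the 3′-seq ratio was between 2.04 and 3.27, and none was called with DESeq2 size factors. Rab6 had 85.4 RPM in head, 198 RPM in ovary, and 57.2 RPM in testis, so it too was highest in ovary among the 3 tissues. Rab21 had 15.1, 39.4, and 16.5 RPM in head, ovary, and testis, and RabX6, a little studied member, had 20.5, 41.7, and 8.69 RPM.

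Testis against ovary compares the male with the female gonad. Of 26 GTPases compared, 5 were higher in testis (19.2%, against 35.2% of all genes) and 9 were lower (34.6%, against 32.9% of all genes). The median log2 ratio in 3′-seq was −0.69 for the GTPases and −0.17 for all 8911 genes, and RNA-seq gave −0.73 and −0.17. DESeq2 size factors moved the median of all genes to 0.99 and the share of higher calls from 51.6% to 69.2%. Under all 3 scalings 4 were higher (Rab14, Rab3, Rab9Fb, and RabX4) and 4 lower (Rab10, Rab27, Rab40, and RabX6). Rab19 lost its call with the library total, and Rab21, Rab23, Rab39, Rab4, and Rab6 lost theirs with DESeq2 size factors.

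Rab14 (chromosome 2L, 14355145 to 14358764, plus strand) had 818 RPM in testis, 176 RPM in ovary, and 329 RPM in head, and RNA-seq gave 301, 34.0, and 56.5 RPM. Testis was 4.64 times ovary (4.40 to 4.90) and 2.49 times head (2.37 to 2.61) in 3′-seq. No other 3′-seq library exceeded 209 RPM, the level in whole males. An annotated antisense RNA overlaps Rab14 by 1411 bp.

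Rab19 had 131 RPM in testis, 52.6 RPM in ovary, and 37.3 RPM in head, and Rab30, a Golgi Rab, had 193, 121, and 61.7 RPM. Both had their highest 3′-seq level in testis and were called lower in head than in testis. Rab10 had 19.7 RPM in testis, 143 RPM in ovary, and 51.9 RPM in head, so testis was the lowest of all 23 libraries for it. Rab4, which acts in rapid endocytic recycling, likewise had its lowest level in testis, with 20.8 RPM, against 91.3 RPM in ovary and 84.2 RPM in head. Rab40, a Rab with a SOCS box, had 88.2 RPM in ovary, 27.0 RPM in head, and 13.4 RPM in testis.

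Head against testis gave 8 GTPases higher (29.6%, against 32.5% of all genes) and 5 lower (18.5%, against 35.4% of all genes) of 27 compared. The median log2 ratio in 3′-seq was 0.69 for the GTPases and −0.11 for all 9779 genes. Fat body markers summed to 126357 RPM in head and 94.8 RPM in testis, and photoreceptor markers to 26018 and 34.6 RPM. Muscle markers summed to 9795 RPM in head and 504 RPM in testis, while testis markers summed to 8.97 and 13603 RPM. The part of these tissues in the ratios was not tested. Rab10, Rab26, Rab3, Rab39, Rab4, Rab5, and RabX6 were higher and Rab14, Rab19, Rab30, and Rab9Fb lower under all 3 scalings. Rab39, which acts in lysosomal and autophagic traffic, had 184 RPM in head, 114 RPM in ovary, and 52.4 RPM in testis. Rab5 was 2.61 times higher in head than in testis (2.45 to 2.78), with 678 and 260 RPM. Rab2 (199 RPM in head and 92.0 RPM in testis) and RabX1 (39.5 and 104 RPM) were also called, and both lost the call with DESeq2 size factors.

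Rab3-GAP (chromosome 2L, 12058304 to 12063184, minus strand) is named for the GTPase-activating protein of Rab3, and testis stood far above all other libraries for it. It had 2831 RPM in testis (13355 reads), 21.3 RPM in ovary, and 17.9 RPM in head, and RNA-seq gave 1651, 69.8, and 40.5 RPM. Testis was 133 times ovary in 3′-seq (117 to 152). Whole males followed with 135 RPM, and male carcass had 14.1 RPM. CG31935, listed as Rab3GAP1 among the genes of Rab function described below, did not follow Rab3-GAP. It had 7.21 RPM in testis, 21.5 RPM in ovary, and 15.9 RPM in head, and was called lower in testis than in ovary. RpL7-like and CG34164 lie 53 bp downstream on the opposite strand, and firl lies 273 bp upstream on the same strand.

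The 5 small Rab9 paralogs on chromosome X, Rab9D, Rab9Db, Rab9E, Rab9Fa, and Rab9Fb, lie between 10589089 and 10952486. Their counts are uncertain, because reads of similar copies can be shared or dropped and the counting options are not given in the sources used here. How alike the sequences of these paralogs are was not examined. Rab9E lies inside X11Lbeta, and Rab9Fa and Rab9Fb, 579 bp apart, lie inside Myo10A, each on the opposite strand of its host. Testis held most of what was read of them. Rab9D had 649 of its 863 3′-seq reads in testis (138 RPM) and 147 in whole males (17.6 RPM). Rab9Fb had 86 of 104 (18.2 RPM), and Rab9E had 63 of 76 (13.4 RPM).

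The assays differed in the order of these paralogs in testis. In 3′-seq Rab9D led, and Rab9Db and Rab9Fa had 0 reads, which allows up to 0.636 RPM. In RNA-seq Rab9Fb led with 399 reads (20.7 RPM), and Rab9D (56 reads), Rab9Db (61 reads), Rab9E (52 reads), and Rab9Fa (45 reads) were close to each other at 2.33 to 3.16 RPM. Rab9Fb alone passed the minimum of 5 RPM in both assays and was 104 times higher in testis than in ovary in 3′-seq (27.8 to 869, from 86 reads and 2 reads). The log2 ratio of 3′-seq to RNA-seq for Rab9D in testis was 5.34, while 90% of 9243 genes of the library were below 1.83. RabX2, which lies inside CG32683 on the opposite strand, had 0 reads in all 23 3′-seq libraries 1 RNA-seq read in head, and 2 in testis.

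**Figure D3:**
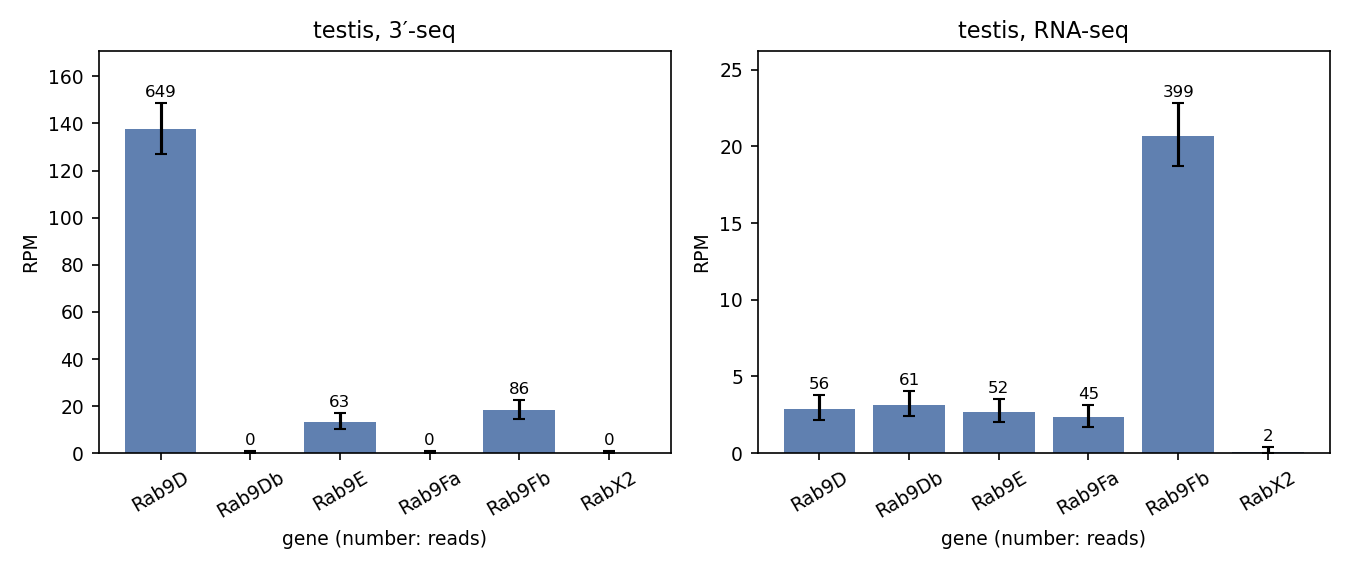
RPM of the 5 Rab9 paralogs on chromosome X and of RabX2 in testis, in 3′-seq (left) and RNA-seq (right), with 95% counting intervals as bars and read numbers above. Rab9D leads in 3′-seq with 649 reads and Rab9Fb in RNA-seq with 399 reads, and Rab9Db and Rab9Fa have reads in RNA-seq only.

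Male and female bodies were compared without and with head and gonads. In carcass, 4 of 24 GTPases were higher in males (16.7%, against 28.8% of all genes) and 0 were lower (7.67% of all genes), with a median log2 ratio of 0.52 for the GTPases and 0.45 for all genes. DESeq2 size factors moved the share of higher calls among all called genes from 79.0% to 60.7%. Rab26, Rab3, and Rab40 kept this call under all 3 scalings. Rab26 had 76 reads in males and 0 in females, which is at least 11.5-fold higher. Rab3 was 11.7 times higher (4.44 to 43.9, from 103 and 4 reads), and Rab40 was 3.30 times higher (2.29 to 4.90), with 24.4 and 7.39 RPM. Rab3-GEF had 10.5 RPM in males and 0.22 RPM (1 read) in females. The marker lists differed between the carcasses as well. Accessory gland markers summed to 2473 RPM in males and 0 in females, 5 fat body markers to 3006 RPM in males and 291272 RPM in females, and 5 muscle markers to 11591 and 5806 RPM. The fat body list includes yolk protein genes, which are expressed mainly in females, so its sum does not measure fat body content alone. The part of these tissues in the Rab values was not tested.

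In whole flies, 12 of 27 GTPases were higher in males (44.4%, against 51.3% of all genes) and 0 were lower (6.16% of all genes). All genes together had a median log2 ratio of 1.06, and the GTPases 0.96. With the library total, the median of all genes was 0.39, and 6 GTPases were higher and 1 lower (Rab21). The share of higher calls among all called genes was 89.3%, against 70.9% with the library total and 78.5% with DESeq2 size factors. Rab2, Rab26, Rab3, Rab30, Rab9D, and RabX4 were higher under all 3 scalings. Rab2 had 146 RPM in males and 35.0 RPM in females, and Rab30 had 71.9 and 16.2 RPM. Whole females were the lowest adult library for both, under female head (199 and 61.7 RPM) and ovary (120 and 121 RPM). The whole female library had the fewest counted reads of the adult libraries (1519235). Ovary germline markers summed to 559 RPM in whole males and 1475 RPM in whole females, and testis markers to 557 and 6.89 RPM. The part of depth, scaling, and tissue content in these values was not tested. Rab26, Rab3, Rab9D, and RabX4 were at 0 reads in whole females, and Rab9D in males was at least 11.9-fold higher.

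The embryo windows ask which transcripts are present early and which appear later. From ovary to 0–45 min embryos, 0 of 23 GTPases were higher (6.48% of all genes) and 3 were lower (26.2% of all genes). These were Rab1 (437 RPM in ovary and 169 RPM in embryos), Rab40, and Rab5, at 2.07 to 2.58-fold, and none was called with the library total or with DESeq2 size factors. The share of higher calls among all called genes was 19.8%, 62.0% with the library total, and 44.2% with DESeq2 size factors. Rab23 (99.6 and 102 RPM) and Rab21 (39.4 and 39.6 RPM) had near-equal levels in ovary and early embryos under TMM scaling, whereas the library total moved the median log2 ratio of all genes from −0.49 to 0.21.

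Between 0–45 min and 18–24 h, 3 of 26 GTPases were higher late (11.5%, against 36.2% of all genes) and 8 were lower (30.8%, against 36.5% of all genes). The median log2 ratio was −0.58 for the GTPases and −0.19 for all genes, which DESeq2 size factors moved to 0.72, with a share of higher calls of 70.9% in place of 49.8%. Rab26, Rab3, and RabX4 were higher and Rab21, Rab23, Rab35, Rab40, and RabX1 lower under all 3 scalings.

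Rab3 had 0 reads in the first 3 windows, then 2.90 RPM at 6–12 h, 37.6 RPM at 12–18 h, and 52.2 RPM at 18–24 h, which is at least 109-fold higher than at 0–45 min. Rab26 was likewise at 0 reads in the first 3 windows and had 1.45 RPM at 6–12 h, 18.8 RPM at 12–18 h, and 12.6 RPM at 18–24 h. RabX4 was read earlier, with 2.24 RPM at 0–45 min, 11.3 RPM at 90 min–6 h, and its highest level, 32.9 RPM, at 6–12 h. Rab3-GEF had 6.71 RPM at 0–45 min, 0 reads at 90 min–6 h, and 54.3 RPM at 18–24 h. The neuronal markers summed to 24.0 RPM at 0–45 min, 127 RPM at 90 min–6 h, 814 RPM at 6–12 h, and 1073 RPM at 18–24 h, while their median was 9.54 RPM at 6–12 h, 90.1 RPM at 12–18 h, and 117 RPM at 18–24 h. Their part in the levels of the Rabs was not tested.

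Rab23 had 102 RPM at 0–45 min, 3.09 RPM at 90 min–6 h, 37.0 RPM at 6–12 h, and 8.60 RPM at 18–24 h. It was thus lowest between 2 higher windows. Rab21 was likewise lower at 90 min–6 h (6.19 RPM) than at 0–45 min (39.6 RPM) and 6–12 h (18.1 RPM), and had 5.45 RPM at 18–24 h. RabX1, an endosomal Rab of flies, had no such return and went from 53.8 RPM at 0–45 min through 35.1 and 17.9 RPM to 8.18 RPM in these windows. Rab35 had 214, 158, 103, and 52.2 RPM. Rab18, which in mammals marks lipid droplets, had 2.41 RPM at 90 min–6 h and 47.8 to 90.8 RPM in the other embryo windows. The 45–90 min library adds little, because 7 reads set the level of Rab11 there.

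**Figure D4:**
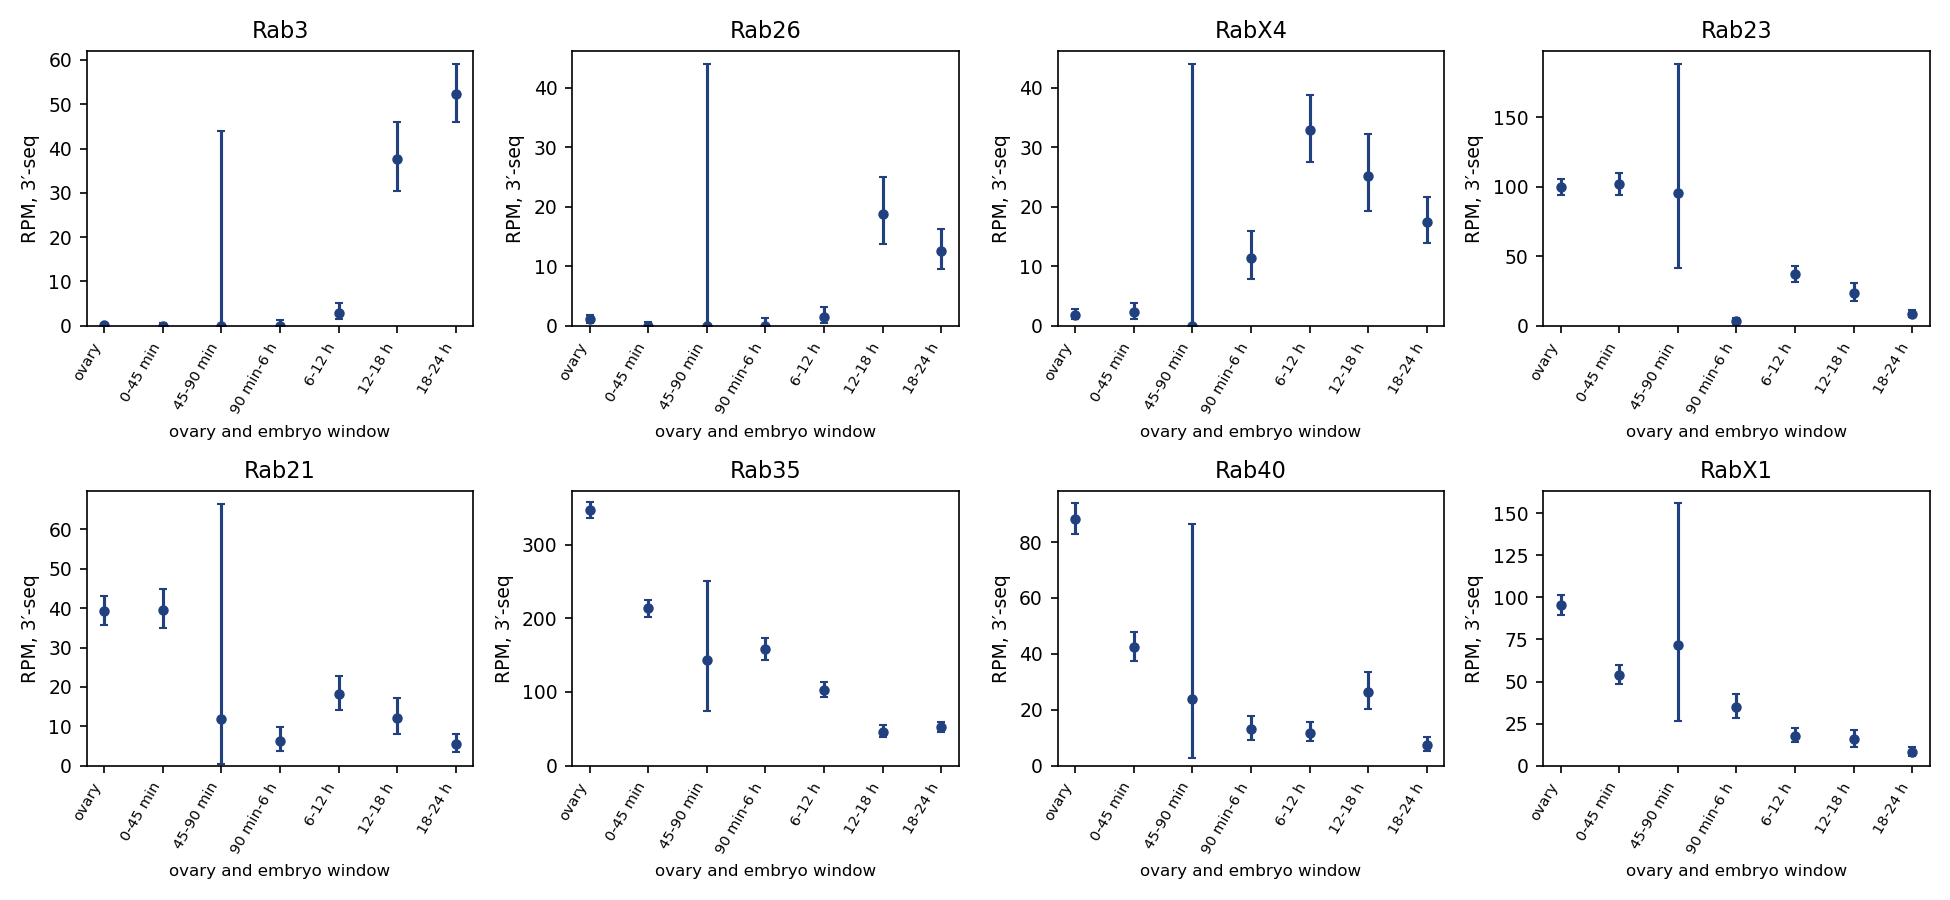
3′-seq RPM of 8 Rab genes in ovary and in the 6 embryo windows (x axis), with 95% counting intervals as bars. Rab3 and Rab26 are at 0 reads in the first 3 embryo windows, RabX4 peaks at 6–12 h with 32.9 RPM, and Rab23 and Rab21 drop to 3.09 and 6.19 RPM at 90 min–6 h, while the 45–90 min intervals are wide.

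Cell lines, embryos, and adult samples were compared as classes with edgeR's quasi-likelihood test and Benjamini-Hochberg adjustment over 9118 genes. The libraries of a class are unlike lines, windows, or tissues, so the test measures the spread among them and not among repeats of a sample. Whole flies also contain the tissues of the other adult libraries, so the adult libraries are not all separate tissues. Of the 33 GTPases, 27 passed the filter on low counts, and Rab9Db, Rab9E, Rab9Fa, Rab9Fb, RabX2, and RabX5 did not. Against adult samples, 7 GTPases were lower in cell lines (25.9%, against 18.6% of all genes) and 0 were higher (5.06% of all genes). Against embryos, 2 were lower in cell lines (7.41%, against 8.63% of all genes) and 0 were higher (3.84% of all genes). Between embryos and adult samples, 1 was lower in embryos (3.70%, against 3.36% of all genes) and 0 were higher (0.921% of all genes). In the 3 contrasts 4, 7, and 5 GTPases had an unadjusted p under 0.05 for cell lines against embryos, cell lines against adult, and embryos against adult, respectively. The share of all genes at this unadjusted threshold was not computed, so these counts have no background.

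Rab32 was lower in cell lines than in both other classes. In flies Rab32 is the product of lightoid, needed for the pigment granules of the eye, which are lysosome-related organelles. Its 3′-seq levels were 1.31 RPM (OSS) to 39.8 RPM (GM2) in cell lines with a median of 6.76 RPM, 11.9 to 59.7 RPM in embryos with a median of 37.1 RPM, and 30.7 to 170 RPM (head) in adult libraries with a median of 64.8 RPM. Of the cell lines, only GM2 was above the lowest adult library. The log2 difference was −2.92 (SE 0.53, adjusted p 0.000526 by edgeR) against adult and −2.03 (SE 0.54, adjusted p 0.0152) against embryos. Both calls held in all 23 refits that left out 1 library each, with adjusted p of at most 0.0018 and 0.0408, and with limma-voom and DESeq2. An annotated RNA on the opposite strand overlaps Rab32 by 1101 bp.

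Rab9, which acts between late endosomes and the Golgi, was the GTPase called lower in embryos than in adult libraries. It had 0 RPM (45–90 min, where 0 reads allow up to 35.8 RPM) to 29.9 RPM in embryos, with a median of 10.4 RPM. Adult libraries had 41.8 to 82.4 RPM with a median of 57.3 RPM, so these classes did not overlap. Rab5 did not overlap either, with 140 to 254 RPM in embryos and 260 to 678 RPM in adult libraries. It was not called (adjusted p 0.0799 by edgeR), and the share of all genes without overlap was not computed. The log2 difference of Rab9 was −2.23 (SE 0.62, adjusted p 0.0420 by edgeR). The call was lost in 14 of 23 refits without 1 library, among them those without the 45–90 min library, without head, and without testis, at adjusted p of up to 0.0841. Cell lines had 0.78 RPM (mbn2) to 64.2 RPM (L1), and their log2 difference to adult was −1.61 (SE 0.51, adjusted p 0.0234). That call was lost in 4 of 23 refits, those without GM2, OSS, female carcass, or male carcass, at adjusted p of up to 0.0642.

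The other calls in cell lines against adult libraries were Rab14, Rab19, Rab8, Rab3, and Rab9D. Rab14 had 55.8 to 164 RPM in cell lines and 78.3 to 818 RPM in adult libraries (log2 difference −1.32, SE 0.39, adjusted p 0.0174 by edgeR). Without testis the adjusted p was 0.141. Rab8, an exocytic Rab, had 31.7 to 121 RPM in cell lines and 73.1 to 197 RPM in adult libraries (log2 difference −0.77, SE 0.24, adjusted p 0.0230). Rab8 lost its call in 6 of 23 refits without 1 library, those without GM2, mbn2, OSS, 0–45 min embryos, testis, or ovary, with adjusted p of 0.0668 without testis and 0.0992 without ovary. Rab19 (−1.01, SE 0.35, adjusted p 0.0398) lost its call in 16 of 23 such refits, with 0.273 without testis.

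Rab3 differed by −4.40 on the log2 scale (SE 1.45, adjusted p 0.0297 by edgeR) from adult and by −4.63 (SE 1.49, adjusted p 0.0423) from embryos. Its medians were 0.069 RPM in cell lines, 10.5 RPM in adult libraries, and 1.45 RPM in embryos, and the classes overlapped at 0. The call against adult was lost in 4 of 23 refits, with adjusted p of 0.112 without head, 0.0547 without mbn2, 0.0514 without OSS, and 0.0567 without S2R+. The call against embryos was lost in 14 of 23 refits. Rab9D was called at 0.0375 with a median of 0.64 RPM in cell lines and 0.11 RPM in adult libraries, while testis had 138 RPM and the fitted log2 difference was −4.13. It passed the filter in only 10 of 23 refits and was called in 7 of these 10. The call was lost without mbn2, BG3, or D32, at adjusted p of up to 0.0569 by edgeR. Limma-voom called 3 of the 7 against adult, Rab8, Rab9, and Rab32, and 2 of the 7 were called by edgeR without OSS, Rab14 and Rab32.

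Rab3-GAP was called lower than adult in cell lines (log2 difference −4.66, SE 1.09, adjusted p 0.00351 by edgeR) and in embryos (−5.57, SE 1.44, adjusted p 0.0316). Its medians were 19.0 RPM in cell lines, 17.9 RPM in adult libraries, and 7.23 RPM in embryos. Without testis the adjusted p was 0.463 and 0.285, respectively.

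**Figure D5:**
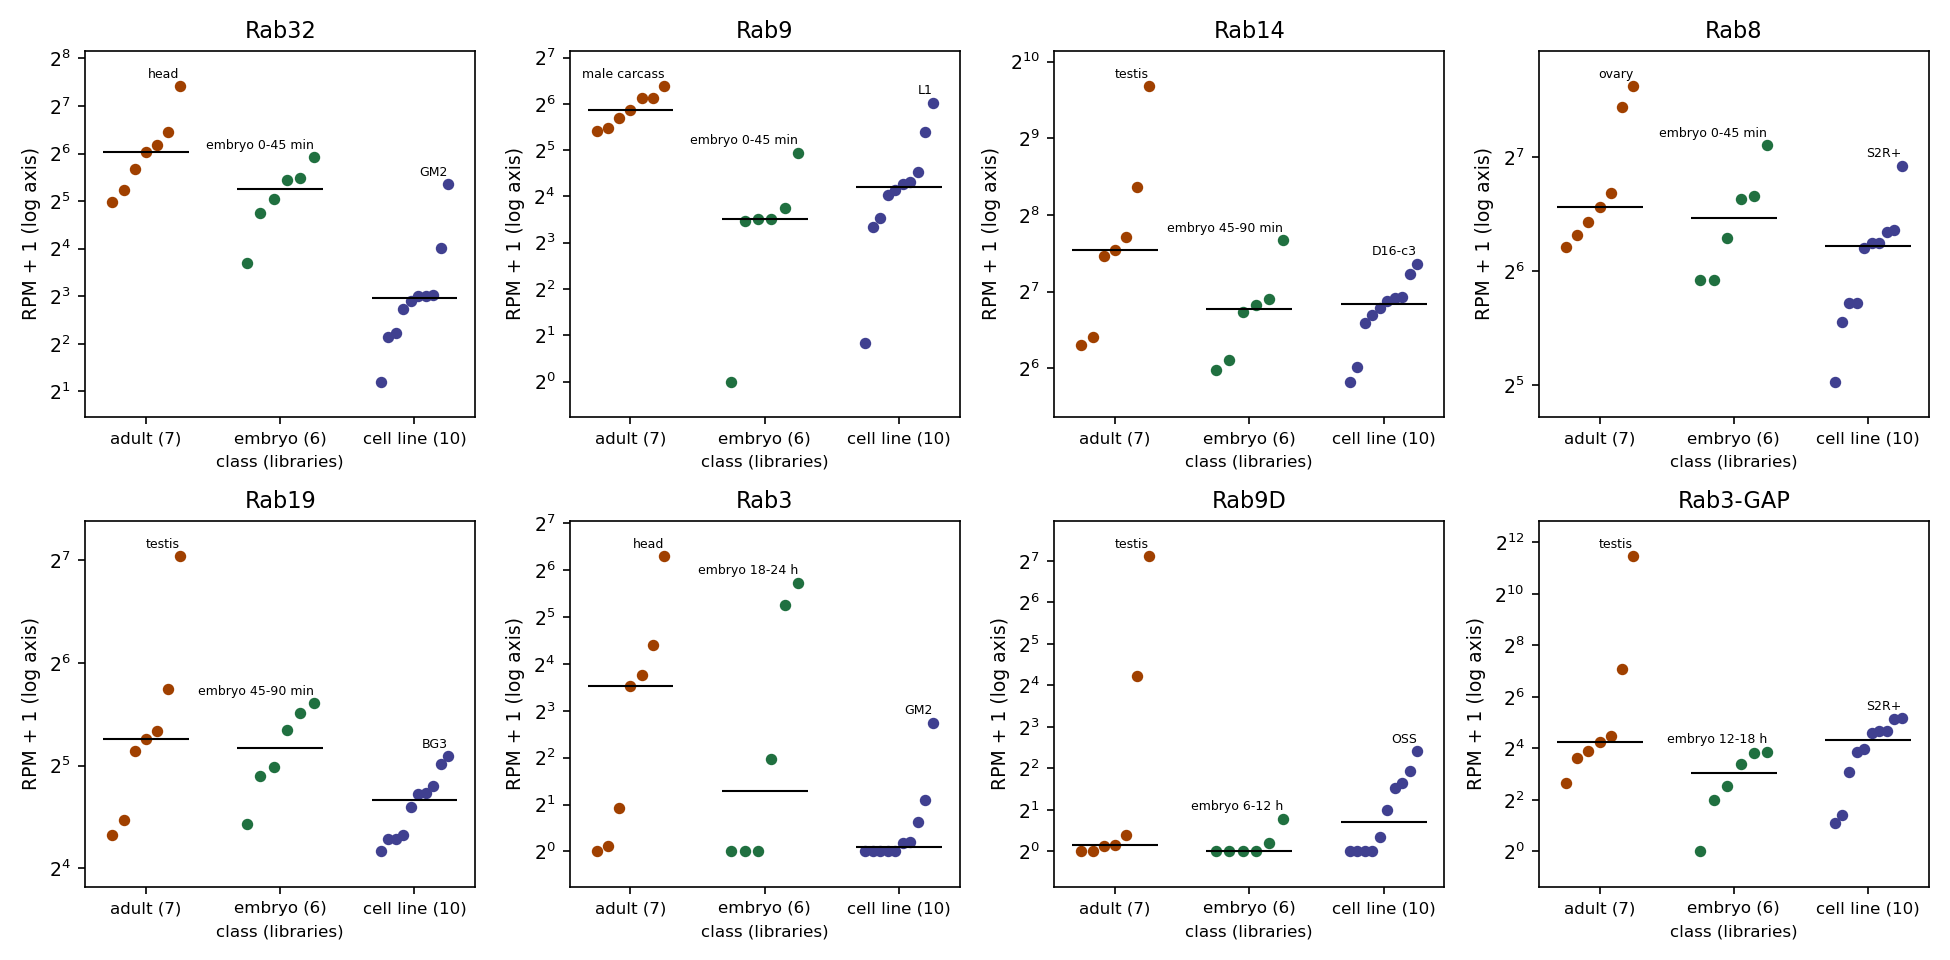
RPM + 1 in 3′-seq on a log axis for the 8 genes called in a class contrast, with 1 point per library in order of level, horizontal lines at class medians, and the highest library named. All adult libraries lie above all embryos for Rab9, 9 of 10 cell lines lie below all adult libraries for Rab32, and testis (138 and 2831 RPM) followed by whole males (17.6 and 135 RPM) are the highest adult libraries for Rab9D and Rab3-GAP.

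A list of 30 genes of Rab function, comprising escort proteins, exchange factors, GAPs, and effectors, was also read. It includes Rab3-GAP and Rab3-GEF. Of the 30, 29 were in the table, and 27 of these were not among the 35. Of 26 compared, 3 were higher and 7 lower in head than in ovary (31.6% and 38.1% of all genes). Rim, a presynaptic effector of Rab3, had 476 RPM in head, 6.07 RPM in ovary, and 12.3 RPM in testis. Against ovary, 2 were higher and 12 lower in testis (35.2% and 32.9% of all genes). Didum, a myosin V motor that binds Rab11, had 307 RPM in testis, 56.8 RPM in ovary, and 39.6 RPM in head. Crag, an exchange factor for Rab10 in follicle cells, had 202 RPM in ovary and 18.7 RPM in testis, and Rep, the escort protein for prenylation, had 36.5 and 6.15 RPM. Head against testis gave 10 higher and 4 lower (32.5% and 35.4% of all genes).

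In the class contrasts, 0 of 26 genes of this list were called by edgeR between cell lines and embryos or between embryos and adult libraries. There 4 and 1 had an unadjusted p under 0.05, a threshold at which the share of all genes was not computed. Against adult libraries, 1 was higher in cell lines, spri, an exchange factor for Rab5 (log2 difference 1.32, adjusted p 0.0473), and 2 were lower. These were didum (−1.93, adjusted p 0.0358) and nuf, a Rab11 effector of the embryo (−0.92, adjusted p 0.0436).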

How the data were processed

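The authors deposited raw read counts per gene, without normalization, for 23 D. melanogaster 3′-seq libraries (2 μg total RNA, single-end 50) and 3 total RNA-seq libraries (1 μg, paired-end 75). Per the labels, reads were trimmed with Trimmomatic 0.36 and mapped with HISAT2 to dm6, and the study counted them with featureCounts on gene models carrying its own 3′ extensions. The strand and multimapping options are not given in the sources used here. TMM factors (edgeR 4.0.16, limma 3.58.1, R 4.3.3) were calculated in each table separately and gave the RPM values. Ratios used RPM + 0.5, genes at 5 RPM or more in 1 of the 2 libraries per assay, and exact conditional binomial intervals of the reads at 95%. The class contrasts used edgeR's quasi-likelihood test after filterByExpr, with adjusted p under 0.05, and DESeq2 1.42.0 and limma-voom as alternatives. The class test was run on simulated counts with a common spread and the same shift in all cell lines. These settings differ from classes of unlike libraries, so that run does not bear on single calls. The fold rule was run on a small example with known ratios, and the other steps were not simulated. Positions come from the Ensembl annotation of dm6, which matched 35 of 35 members and 89.6% of all symbols. Figures used Python 3.11.15 and matplotlib 3.10.9.

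The members and lists were chosen with earlier results of these data known. Every row that the name rule finds is named, and values by library are given for those called in the comparisons of head, ovary, and testis, with tau of at least 0.7, or called in a class contrast. Rim, didum, Crag, Rep, spri, nuf, and CG31935 were picked from the list of Rab regulators after their values were seen.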

Additional observations from a re-analysis of the deposited data

Results flagged for a closer look

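Within the adult, cell line, and embryo libraries, a member was listed when the gap between its extreme library and the next took up more of the class range than Dixon's 95% critical value. This held for 24 of 87 gene and class combinations that reached 5 RPM. The 1 in 20 rate of this value holds for normally distributed replicates, and the libraries of a class are unlike samples. The count is thus not set against that rate, and the share of all genes listed was not computed. Both 24 and 87 include Rab3-GAP and Rab3-GEF.

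Among the 7 adult libraries, testis stood apart for Rab14 (818 RPM), Rab19 (131 RPM), Rab9D (138 RPM), Rab9E (13.4 RPM), Rab9Fb (18.2 RPM), and Rab3-GAP (2831 RPM). Ovary stood apart for Rab11 (479 RPM), Rab35 (346 RPM), Rab40 (88.2 RPM), and Rab6 (198 RPM). Head stood apart for Rab3 (77.9 RPM), Rab26 (51.7 RPM), Rab32 (170 RPM), and Rab3-GEF (152 RPM).

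Among the 10 cell lines, S2R+ stood apart for Rab11 (1010 RPM, next 573 RPM) and Rab21 (61.5 RPM, next 15.5 RPM), and GM2 for Rab3 (5.72 RPM, 27 reads) and Rab32 (39.8 RPM, next 15.1 RPM). BG3 stood apart for RabX1, with 216 RPM from 143 reads, against 75.2 RPM in the next line. BG3 is the shallowest cell line library.

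Among the 6 embryo windows, 6–12 h stood apart for Rab1 (229 RPM) and Rab6 (174 RPM), and 0–45 min for Rab21 (39.6 RPM). The 45–90 min library was highest for RabX6 (83.6 RPM) and lowest for Rab11 (83.6 RPM), and each of these values rests on 7 reads.

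The D. yakuba libraries, of head, ovary, and testis in both assays and of embryos in 3′-seq, are not set against those of D. melanogaster. The D. yakuba table names 2 of the genes by symbol, and reads were present for both. Rab1 had its highest 3′-seq level in testis (297 RPM), and Rab23 had its highest in ovary (76.2 RPM).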

How the results depend on the processing

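The counts of called GTPases were recomputed under each alternative. Rab32 kept its call against both other classes in every refit and alternative run. In the comparison of embryos with adult libraries, 1 GTPase was called, against 3 by DESeq2's Wald test and with no filter beyond 1 read (Rab9, Rab5, and Rab9D), and 0 by limma-voom, without the 45–90 min library, and without the whole-fly libraries. For cell lines against adult, 7 were called and limma-voom called 3. For cell lines against embryos, 2 were called and 1 by limma-voom, with no filter, and without the 45–90 min library, where Rab3 was lost. In refits that left out 1 library each, an alternative chosen after seeing the data, the counts ranged from 1 to 2 for cell lines against embryos, from 2 to 7 for cell lines against adult, and from 0 to 1 for embryos against adult. The cause of these losses was not tested. DESeq2 size factors gave 7 calls in place of 11 for head against ovary and 7 in place of 12 for whole males against females, where the library total also gave 7. For 0–45 min embryos against ovary, the library total, DESeq2 size factors, and a 4-fold threshold gave 0 in place of 3. A 4-fold threshold gave 4 of 11 for head against ovary, 9 of 14 for testis against ovary, 2 of 13 for head against testis, 2 of 4 for carcass, and 6 of 12 for whole flies. With DESeq2 size factors, which moved the median log2 ratio of all genes from −0.50 to 0.54 for head against ovary and from −0.17 to 0.99 for testis against ovary, 3 of the called log2 ratios changed sign, those of Rab27 (0.022) and RabX6 (0.033) for head against ovary and that of Rab39 (0.064) for testis against ovary. Of the recomputed counts, 58 stayed within 1.5 times and 20 did not. Without cell lines 4 GTPases had tau of at least 0.7, and Rab3 was the one lost.

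No paired analysis was possible because each condition has 1 library, so the groups share only the number 1. The contrasts of tissues over 3 species were not run, because the other tables share only 434 (D. yakuba) and 193 (D. virilis) gene symbols with D. melanogaster. Precision is limited by depth in the 45–90 min embryos, where 1 read is 11.9 RPM, and in BG3.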

Other observations

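In the D. yakuba 3′-seq libraries, Rab23 had 76.2 RPM in ovary, 4.39 RPM in testis, and 3.22 RPM in head, and RNA-seq gave 155, 9.21, and 7.65 RPM. Ovary was thus the highest of the 3 tissues in both assays. The embryo libraries had 0 reads at 0–12 h and 24.98 RPM at 12–24 h. Rab1 was even across tissues, with 261 RPM in head, 254 RPM in ovary, and 297 RPM in testis. These values were scaled within the D. yakuba table and are not set against D. melanogaster levels.

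Across head, ovary, and testis, the GTPases had more reads in 3′-seq relative to RNA-seq than the median gene. The median log2 ratio of 3′-seq to RNA-seq RPM was 0.80 over 26 GTPases in head, 1.06 over 23 in ovary, and 0.94 over 28 in testis, against 0.16, 0.17, and 0.20 over all genes. RNA-seq reads scale with transcript length and 3′-seq reads do not, and the part of length in this difference was not tested. Rab3 in head went the other way, with 77.9 RPM in 3′-seq and 325 RPM in RNA-seq.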
